A study of Mus musculus with 9 samples.

Results

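The ATF4 target genes described here are 33 listed genes for amino acid transport, amino acid and folate-linked synthesis, and stress signalling that lie under the transcription factor ATF4. They were taken as a fixed list of symbols, matched to the Ensembl identifiers of a count table that holds 22396 genes. All 33 were found there, and the rule uses no measured value, although the list was drawn up with earlier results of these data known. ATF4 is a basic leucine zipper protein made when kinases that sense amino acid shortage, endoplasmic reticulum stress, haem lack or double-stranded RNA phosphorylate the initiation factor eIF2α, a circuit called the integrated stress response. It binds composite C/EBP-ATF elements with partners of the C/EBP family and switches on genes that import and make amino acids, load tRNAs, restrain mTORC1 and, under lasting stress, promote cell death. In melanoma cells the pathway is known for its link to nutrient shortage and to changes of cell state.

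The cells were B16F10, a mouse melanoma line that stably expressed FLAG-tagged RIG-I, a cytosolic sensor of RNA. Control cells carried shCtr, and knockdown cells carried either shOSGEP#1 or shOSGEP#2, the 2 shRNAs directed at Osgep, the gene for the catalytic subunit of the KEOPS complex, which makes the tRNA modification t6A. RNA recovered with RIG-I by immunoprecipitation was sequenced from 3 replicates per group, described in the methods as independent experiments. Every group carried the tagged RIG-I, so the comparison of each shRNA with shCtr asks how the RNA recovered with RIG-I differed when Osgep was targeted. Every value below therefore refers to RNA that came down with RIG-I, in counts per 1000000 counts of the library (CPM). The input RNA of the same cells was not analysed here. A change in how much of an RNA came down with RIG-I and a change in its level in the cells cannot therefore be told apart. Nor can fewer cells of a type and less RNA per cell.

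Osgep (ENSMUSG00000006289) itself stood at 19.1, 19.9 and 15.5 CPM in shCtr replicates 1, 2 and 3. With shOSGEP#1 it stood at 3.76, 1.15 and 1.53 CPM, and with shOSGEP#2 at 0.0786 CPM in replicate 1, 0 in replicate 2 and 2.88 CPM in replicate 3. Every library of either shRNA was below every shCtr library. The log2 fold change by edgeR was −3.10 ± 0.73 (SE) for shOSGEP#1 (adjusted p = 0.0128) and −3.84 ± 0.93 for shOSGEP#2 (adjusted p = 0.0150), neither of which passed the threshold used throughout, an adjusted p under 0.01. DESeq2 on the same libraries called Osgep for shOSGEP#2 (adjusted p = 0.00920) and not for shOSGEP#1 (adjusted p = 0.0150). Leaving out 1 library gave −3.77 to −2.79 for shOSGEP#1, with edgeR calls without shOSGEP#2 replicate 1 (adjusted p = 0.000964) and without shOSGEP#2 replicate 3 (adjusted p = 0.000920). For shOSGEP#2 the fold change was −2.78 without its replicate 1 (adjusted p = 0.0136) and −7.86 without its replicate 3 (adjusted p = 0.00134), where the group is a single library at 2 counts, under the floor of 3, so that this fitted value is no bound. Below, a gene is said to be called, to have risen or to have fallen where it passed this threshold by edgeR on 8 libraries. Ddx58, the gene for RIG-I, stood at 180, 184 and 278 CPM in shCtr, at 232, 216 and 327 CPM in shOSGEP#1, and at 402 and 429 CPM in shOSGEP#2 replicates 1 and 3, above the 6 other libraries, with no count in replicate 2. It was called in none of the 3 comparisons by edgeR, while DESeq2 on the same libraries called it higher with shOSGEP#2 than with shCtr (adjusted p = 0.00289). The part of the level of Ddx58 in the results below was not tested.

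Total counts were 40333037, 47750758 and 41805753 in the shCtr libraries and 34551436, 50224299 and 30697653 in those of shOSGEP#1. Those of shOSGEP#2 had 25460689, 568995 and 14914731. Replicate 2 of shOSGEP#2 stands apart from the rest, with 568995 counts over 4196 genes. In that library 14 of the 33 ATF4 target genes had no count, and a count of 0 there allows up to 5.27 CPM (3 counts), against 0.0597 to 0.201 CPM in the others. Its median Spearman correlation with the other libraries over genes was 0.568, against 0.950 to 0.970 for the rest. It was left out of the tests, which use 8 libraries, and its values and the counts of members called with it included are given beside the others. With it included edgeR called 0 genes in each of the 3 comparisons, with 620, 1240 and 1325 at an unadjusted p under 0.05, while DESeq2 called 122, 349 and 413 and limma voom with quality weights called 3317, 1012 and 933. Intervals and floors of this kind cover counting error only.

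The label of a melanoma line was checked against melanocyte markers. All 9 listed markers had counts in every library except shOSGEP#2 replicate 2, where Tyr and Mitf were at 0. Their summed level was 9152, 8369 and 11140 CPM in shCtr, 10823, 14091 and 12776 CPM in shOSGEP#1, and 3818, 2624 and 4735 CPM in shOSGEP#2. The most abundant of them was Gpnmb or Tyrp1, except in shOSGEP#2 replicate 2, where it was Sox10. Between shOSGEP#2 and shCtr, 7 of the 9 were lower by edgeR, and between shOSGEP#1 and shCtr Tyr was lower and Gpnmb higher. Of the 7 calls, that of Mlana ended without shOSGEP#2 replicate 3 and that of Sox10 without shOSGEP#2 replicate 1. That of Gpnmb ended without shCtr replicate 1 or shOSGEP#2 replicate 1 or 3. Over the fits that left out 1 library, the log2 fold changes of these 3 were −1.55 to −1.18, −1.12 to −0.88 and −1.13 to −0.96. Between shOSGEP#2 and shOSGEP#1, 6 of the 9 were lower (Dct, Pmel, Mlana, Sox10, Gpnmb and Slc45a2). Markers of leukocytes (up to 4.79 CPM summed), keratinocytes (up to 0.195 CPM) and endothelial cells (up to 2.18 CPM) were low in every library. The 6 fibroblast markers summed to 4.44, 6.16 and 7.22 CPM in shCtr, 5.15, 3.64 and 7.26 CPM in shOSGEP#1, and 16.5, 68.5 and 39.1 CPM in shOSGEP#2. Col1a1 or Col1a2 led this list in 8 of the 9 libraries, Pdgfra led it in shOSGEP#1 replicate 2, and Lum was at 0 in all of them. Col1a1 and Col1a2 were higher by edgeR in shOSGEP#2 than in shOSGEP#1. These marker levels and the depths move with the shOSGEP#2 group, as does Lars2, which held 1.10%, 6.79% and 0.264% of its counts against 0.0109% to 0.134% in the other groups. Their part in the results below was not tested.

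The ATF4 target genes together took a larger share of the library's counts with shOSGEP#2 than with shOSGEP#1. Their summed level was 5634, 5801 and 4187 CPM with shCtr, 4465, 4983 and 3758 CPM with shOSGEP#1, and 8303 and 7679 CPM with shOSGEP#2 replicates 1 and 3. In shOSGEP#2 replicate 2 it was 6429 CPM, carried by the 19 members with counts. Of the 30 members tested, 12 stood there above every shCtr library, 7 had counts but stood below every shCtr library, and 11 had no count. A count of 0 there allows up to 5.27 CPM. Those 11, except Slc7a3, had 18.6 CPM or more in every shCtr library, so they too lay below shCtr. How many of all genes without a count lay below in this way was not worked out. Of all genes tested 19.8% stood above, 10.9% below with counts, and 67.2% had no count. The shOSGEP#2 libraries were the highest of the 9, and the shOSGEP#1 libraries overlapped with shCtr through shCtr replicate 3. That replicate gave the lowest of the 3 shCtr values for 25 of the 30 members tested, while it was the lowest for 39.5% of all genes tested. Likewise, shOSGEP#1 replicate 3 was the lowest of its group for 18 of the 30, against 42.5% of all genes tested. Counts from mitochondrial genes were 0.223%, 0.147% and 0.303% in shCtr, 0.347%, 0.445% and 2.96% in shOSGEP#1, and 0.211%, 0.633% and 0.268% in shOSGEP#2, the high value being that of shOSGEP#1 replicate 3. The part of these shares in the members' levels was not tested.

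Of the 33 members 30 had enough counts to be tested, among 12744 genes. Between shOSGEP#1 and shCtr, 8 of the 30 changed, 1 higher and 7 lower, where 9.67% of all genes tested were called, 5.00% higher and 4.67% lower. The 7 that fell were Psph, Aldh1l2, Sesn2, Ddit4, Eif4ebp1, Chac1 and Nupr1, and Slc7a1 rose. Their median log2 fold change over the 30 was −0.18, against 0.00211 over all genes tested, and 11 were positive, against 50.1% of all genes tested. This median rests on single libraries. It was −0.11, −0.05 and −0.34 without shCtr replicates 1, 2 and 3, and −0.29 without shOSGEP#1 replicate 2. It was −0.19 with all 9 libraries by edgeR and −0.20 by DESeq2. The single higher member is near the share of all genes called in that direction. With all 9 libraries in the fit edgeR called 0 members, with 4 at an unadjusted p under 0.05, while DESeq2 called 2 and limma voom with quality weights called 14. With the replicate number as a block, a pairing that was not adopted, edgeR on the 8 libraries called 11, 2 higher and 9 lower. DESeq2 on the 8 libraries called 13, 3 higher and 10 lower. Leaving out shCtr replicate 2 gave 5 members. The number of all genes called moved from 1232 to 427 without shCtr replicate 1, 318 without shCtr replicate 2, 763 without shCtr replicate 3, 429 without shOSGEP#1 replicate 2 and 724 without shOSGEP#1 replicate 3.

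Between shOSGEP#2 and shCtr, 4 of the 30 members rose and 0 fell by edgeR, where 9.55% of all genes tested were called, 5.66% higher and 3.89% lower. The 4 were Slc1a4, Cth, Pck2 and Gdf15. The median over the 30 was 0.43, against −0.06 over all genes tested, and 26 of them had a positive fold change, against 46.6% of all genes tested. With all 9 libraries the median was 0.24 by edgeR, with 18 positive and 12 negative, and 0.10 by DESeq2, with 16 positive and 12 negative, where the medians of all genes were −0.37 and −0.37. At an unadjusted p under 0.05 there were 11 members, and DESeq2 on the same libraries called 8, all higher. With the replicate number as a block, a pairing that was not adopted, edgeR on the 8 libraries also called 8, all higher. With all 9 libraries edgeR called 0 members, with 7 at an unadjusted p under 0.05, DESeq2 called 3 and voom with quality weights called 4. Leaving out shCtr replicate 1, shOSGEP#2 replicate 1 or shOSGEP#2 replicate 3 gave 2 members each. The number of all genes called moved from 1217 to 584 without shCtr replicate 1, 518 without shCtr replicate 2, 766 without shCtr replicate 3 and 631 without shOSGEP#2 replicate 3.

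The direct comparison of the 2 shRNAs gave the most calls, 13 of the 30 members higher with shOSGEP#2 than with shOSGEP#1 and 0 lower by edgeR. Among all genes tested 10.8% were called, 6.23% higher and 4.56% lower. The median over the 30 was 0.85, against −0.04 over all genes tested, and 25 were positive, against 47.5% of all genes tested. It was 0.68 with all 9 libraries by edgeR and 0.43 by DESeq2, where the medians of all genes were −0.35 and −0.39. On the 8 libraries, at an unadjusted p under 0.05 there were 20 members. With all 9 libraries edgeR called 0 members, with 10 at an unadjusted p under 0.05, DESeq2 called 6 and voom with quality weights called 12. DESeq2 on the 8 libraries called 15, all higher. The number of all genes called moved from 1375 to 821 without shOSGEP#1 replicate 2 and to 743 without shOSGEP#2 replicate 3. Each pair of comparisons shares a group of libraries, so their values are set side by side below and not counted as independent. In all, 14 members passed the threshold in at least 1 comparison, and 0 passed it by edgeR for both shRNAs against shCtr. DESeq2 on the same 8 libraries called Gdf15 for both shRNAs, higher each time. It also called Aldh1l2, Cth, Trib3 and Chac1 for both, lower with shOSGEP#1 and higher with shOSGEP#2.

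**Figure D1:**
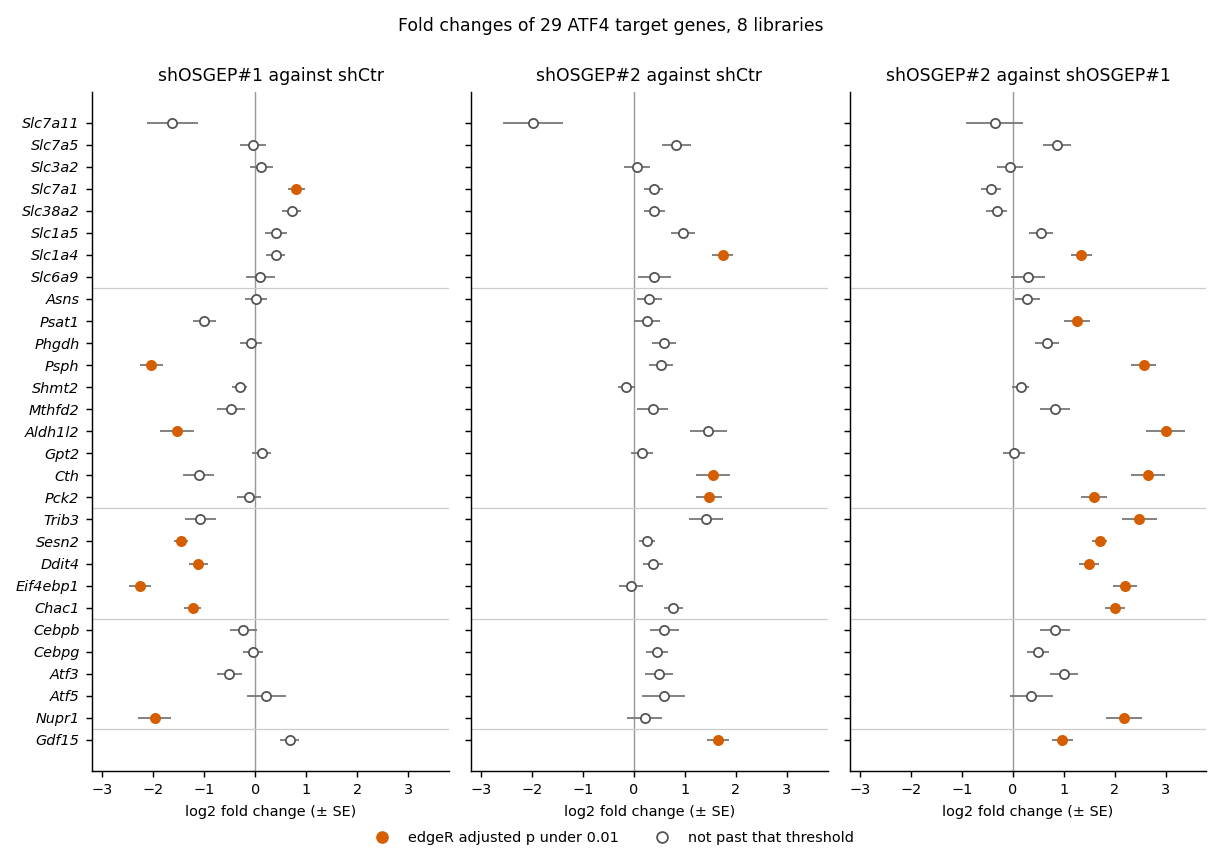
Log2 fold changes (horizontal axis) with standard errors (bars) for 29 ATF4 target genes (vertical axis, by role) in the 3 comparisons, from edgeR on 8 libraries, with filled points for called genes. The signalling genes lie to the left of 0 between shOSGEP#1 and shCtr and to the right of 0 between shOSGEP#2 and shOSGEP#1; Slc7a3, at 1 and 0 counts in shOSGEP#2, is not drawn.

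The 9 transporters bring amino acids into the cell. Summed, they stood at 1198, 1171 and 1063 CPM in shCtr, 1176, 1783 and 1628 CPM in shOSGEP#1, and 1645 and 1608 CPM in shOSGEP#2 replicates 1 and 3 (1786 CPM in replicate 2). 1 of the 9 was called in each comparison, in every case higher, a share near the 9.67%, 9.55% and 10.8% of all genes tested that were called. Slc7a1 (ENSMUSG00000041313), the cationic amino acid transporter CAT1 that carries arginine and lysine, stood at 215, 227 and 221 CPM in shCtr. It reached 306, 483 and 380 CPM with shOSGEP#1, and 313 and 304 CPM with shOSGEP#2 replicates 1 and 3, with no count in replicate 2. All shOSGEP#1 libraries lay above all shCtr libraries, and it rose by a log2 fold change of 0.81 ± 0.17 (edgeR adjusted p = 0.00765). That call ended without shCtr replicate 1, 2 or 3, and without shOSGEP#1 replicate 2 or 3, with fold changes of 0.62 to 0.82 and adjusted p from 0.0169 to 0.0372.

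Slc1a4 (ENSMUSG00000020142), the neutral amino acid exchanger ASCT1, was at 25.96, 26.5 and 23.2 CPM in shCtr and at 26.4, 40.8 and 33.6 CPM in shOSGEP#1. With shOSGEP#2 it was at 76.9 and 104 CPM in replicates 1 and 3, and at 123 CPM in replicate 2. All shOSGEP#2 libraries were above the 6 others. It rose by 1.74 ± 0.21 against shCtr (log2, edgeR adjusted p = 0.000337) and by 1.34 ± 0.21 against shOSGEP#1 (adjusted p = 0.00113). The latter call ended without shOSGEP#2 replicate 3, at 1.14 with an adjusted p of 0.0123. Its relative Slc1a5, the glutamine carrier ASCT2, read 59.9, 57.8 and 42.9 CPM in shCtr, 64.5, 96.7 and 53.5 CPM in shOSGEP#1, and 115 and 107 CPM in shOSGEP#2. In shOSGEP#2 replicate 2 it read 1149 CPM. Its log2 fold change of 0.96 ± 0.24 between shOSGEP#2 and shCtr missed the threshold (edgeR adjusted p = 0.0169), while DESeq2 on the same 8 libraries called it (adjusted p = 0.00102).

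Slc7a11 (ENSMUSG00000027737), the cystine importer xCT that supplies cysteine for glutathione, was uneven among the controls. It stood at 131, 116 and 19.97 CPM in shCtr, at 25.96, 25.4 and 35.5 CPM in shOSGEP#1, and at 22.0 and 25.9 CPM in shOSGEP#2 replicates 1 and 3, with no count in replicate 2. Replicate 3 of shCtr lay below every shOSGEP#1 library, so the groups overlap. The log2 fold changes of −1.63 ± 0.50 (edgeR adjusted p = 0.0386) for shOSGEP#1 and −1.98 ± 0.59 (adjusted p = 0.0350) for shOSGEP#2 did not pass. Without shCtr replicate 3 Slc7a11 passed for both shRNAs, at −2.10 (adjusted p = 0.000485) and −2.45 (adjusted p = 0.000450).

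Slc38a2, the sodium-coupled neutral transporter SNAT2, ran from 335 to 389 CPM in shCtr and from 433 to 695 CPM in shOSGEP#1, and stood at 460 and 542 CPM in shOSGEP#2 replicates 1 and 3, with 267 CPM in replicate 2. The ranges of shCtr and shOSGEP#1 do not overlap, but its log2 fold change of 0.71 ± 0.18 did not pass (edgeR adjusted p = 0.0188). DESeq2 on the same 8 libraries called this change (adjusted p = 0.00126). Slc7a5, the large neutral amino acid transporter LAT1, ran from 161 to 183 CPM in shCtr, from 109 to 244 CPM in shOSGEP#1, and stood at 376 and 276 CPM in shOSGEP#2 replicates 1 and 3, with no count in replicate 2. Its heavy chain partner Slc3a2 ran from 130 to 280 CPM over the 8 libraries and read 121 CPM in shOSGEP#2 replicate 2. Neither was called by edgeR in any of the 3 comparisons, while DESeq2 on the 8 libraries called Slc7a5 between the shRNAs (adjusted p = 0.00811). Slc6a9, the glycine transporter GLYT1, ran from 30.9 to 77.2 CPM over the 8 libraries without a call, with 125 CPM in shOSGEP#2 replicate 2. Slc7a3, another cationic transporter, had 13, 6 and 9 counts in shCtr, 14, 8 and 14 in shOSGEP#1, and 1, 0 and 0 in shOSGEP#2, too few for a fold change to be given.

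The 10 synthesis genes encode enzymes of amino acid and folate metabolism. Summed, they stood at 2691, 2879 and 2026 CPM in shCtr, 2293, 2137 and 1451 CPM in shOSGEP#1, and 4212 and 3430 CPM in shOSGEP#2 replicates 1 and 3 (1953 CPM in replicate 2). Between shOSGEP#1 and shCtr 2 of them fell, between shOSGEP#2 and shCtr 2 rose, and 5 were higher with shOSGEP#2 than with shOSGEP#1. Of all genes tested 4.67% fell, 5.66% rose and 6.23% were higher in the same comparisons. Their median log2 fold changes were −0.39, 0.45 and 1.04 in these comparisons, against 0.00211, −0.06 and −0.04 over all genes tested. The first was −0.20 without shOSGEP#1 replicate 3 and the second 0.29 without shOSGEP#2 replicate 1. The 3 medians with all 9 libraries were −0.40, 0.02 and 0.66 by edgeR and −0.38, −0.01 and 0.62 by DESeq2, so the sign of the second differed between the tools.

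Psph (ENSMUSG00000029446) encodes phosphoserine phosphatase, which takes the last step of serine synthesis. It stood at 96.3, 115 and 73.7 CPM in shCtr and at 28.0, 25.5 and 16.1 CPM in shOSGEP#1. In shOSGEP#2 it was at 138 and 154 CPM in replicates 1 and 3, and at 346 CPM in replicate 2. Each shOSGEP#1 library was below every library of the other groups. Psph fell by 2.04 ± 0.23 on the log2 scale with shOSGEP#1 (edgeR adjusted p = 0.000322) and was higher by 2.57 ± 0.24 with shOSGEP#2 than with shOSGEP#1 (adjusted p = 0.000118). Both calls were made in each of the 8 fits that left out 1 library.

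Psat1 (ENSMUSG00000024640), the transaminase one step earlier, was at 358, 390 and 317 CPM in shCtr, at 234, 190 and 115 CPM in shOSGEP#1, and at 501 and 403 CPM in shOSGEP#2 replicates 1 and 3, with 193 CPM in replicate 2. Each shOSGEP#1 library was below each shCtr library. Against shCtr its log2 fold change of −1.0 ± 0.23 did not pass (edgeR adjusted p = 0.0121), while DESeq2 on the 8 libraries called it (adjusted p = 0.000190). Psat1 was higher by 1.25 ± 0.25 with shOSGEP#2 than with shOSGEP#1 (edgeR adjusted p = 0.00549). This last call ended without shCtr replicate 2, shOSGEP#1 replicate 2, shOSGEP#2 replicate 1 or shOSGEP#2 replicate 3, with fold changes of 1.05 to 1.43 and adjusted p from 0.0106 to 0.0330. Phgdh, the dehydrogenase that opens the pathway, ran from 336 to 397 CPM in shCtr, from 222 to 413 CPM in shOSGEP#1, and stood at 582 and 563 CPM in shOSGEP#2 replicates 1 and 3, with 75.6 CPM in replicate 2 and no call.

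Of the 3 mitochondrial folate enzymes listed, Aldh1l2 was called and Shmt2 and Mthfd2 were not, and the difference between the genes was not tested. Aldh1l2 (ENSMUSG00000020256), the mitochondrial 10-formyltetrahydrofolate dehydrogenase, was at 225, 208 and 78.8 CPM in shCtr, at 71.5, 57.3 and 48.8 CPM in shOSGEP#1, and at 604 and 393 CPM in shOSGEP#2 replicates 1 and 3, with no count in replicate 2. The 3 groups do not overlap in these 8 libraries, although shCtr replicate 3 was close to shOSGEP#1. It fell by 1.54 ± 0.34 with shOSGEP#1 (log2, edgeR adjusted p = 0.00915). That call ended without shCtr replicate 1 or 2 and without shOSGEP#1 replicate 1, 2 or 3, with fold changes from −1.69 to −1.29 and adjusted p from 0.0150 to 0.0423. Against shCtr its fold change with shOSGEP#2 was 1.46 ± 0.37 (adjusted p = 0.0169), and it was higher by 3.0 ± 0.38 with shOSGEP#2 than with shOSGEP#1 (adjusted p = 0.000416). Shmt2, the mitochondrial serine hydroxymethyltransferase, ran from 283 to 453 CPM, and Mthfd2, the mitochondrial methylenetetrahydrofolate dehydrogenase, from 180 to 685 CPM over the 8 libraries. They read 96.7 and 214 CPM in shOSGEP#2 replicate 2. Neither was called by edgeR in any comparison.

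Cth (ENSMUSG00000028179), cystathionine gamma-lyase, which makes cysteine from cystathionine, stood at 38.5, 43.3 and 28.5 CPM in shCtr. It was at 20.7, 21.5 and 9.15 CPM in shOSGEP#1 and at 137 and 90.8 CPM in shOSGEP#2 replicates 1 and 3, with no count in replicate 2. The groups were ordered as for Aldh1l2, without overlap. Cth rose by 1.54 ± 0.33 with shOSGEP#2 against shCtr (log2, edgeR adjusted p = 0.00808) and by 2.65 ± 0.34 against shOSGEP#1 (adjusted p = 0.000445). With shOSGEP#1 against shCtr its fold change was −1.11 ± 0.31 (adjusted p = 0.0253). The call against shCtr ended without shCtr replicate 1, 2 or 3, without shOSGEP#1 replicate 2, and without shOSGEP#2 replicate 1 or 3, with fold changes of 1.18 to 1.83 and adjusted p from 0.0109 to 0.0527.

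Pck2 (ENSMUSG00000040618), the mitochondrial phosphoenolpyruvate carboxykinase, was at 118, 138 and 79.7 CPM in shCtr and at 126, 116 and 69.7 CPM in shOSGEP#1. In shOSGEP#2 it was at 315 and 348 CPM in replicates 1 and 3 and at 947 CPM in replicate 2, all above the other 6 libraries. It rose by 1.47 ± 0.26 against shCtr (log2, edgeR adjusted p = 0.00297) and by 1.59 ± 0.26 against shOSGEP#1 (adjusted p = 0.00165). The first call ended without shCtr replicate 1, shCtr replicate 3, shOSGEP#2 replicate 1 or shOSGEP#2 replicate 3, with fold changes of 1.28 to 1.52 and adjusted p from 0.0101 to 0.0192. The second ended without shOSGEP#2 replicate 3, at 1.55 with an adjusted p of 0.0119. Asns, asparagine synthetase, ran from 317 to 556 CPM in shCtr, from 398 to 514 CPM in shOSGEP#1, and stood at 690 and 522 CPM in shOSGEP#2 replicates 1 and 3, with 79.1 CPM in replicate 2, and was not called. Gpt2, the mitochondrial alanine transaminase, ran from 87.0 to 156 CPM over the 8 libraries, had no count in shOSGEP#2 replicate 2, and was not called either.

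**Figure D2:**
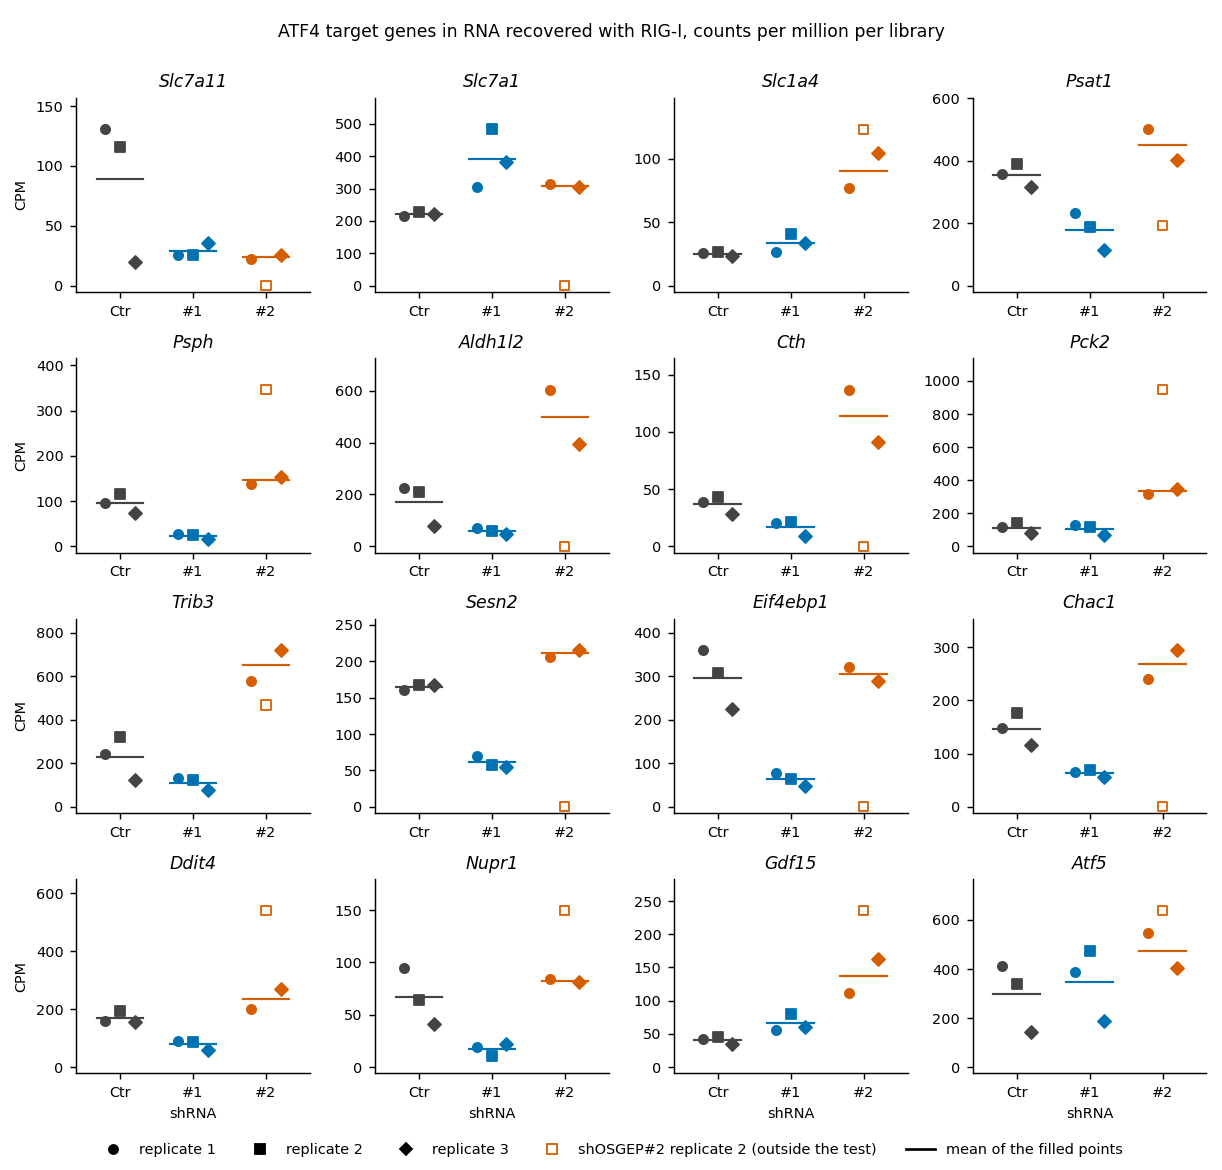
CPM (vertical axis, linear, from 0) of 16 ATF4 target genes in each library, by shRNA (horizontal axis), with lines at the mean of the filled points and open squares for shOSGEP#2 replicate 2. Psph, Sesn2, Eif4ebp1 and Chac1 are lower in each shOSGEP#1 library than in every shCtr library, and Slc7a11 is at 19.97 in shCtr replicate 3 against 131 and 116 in the other shCtr libraries.

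The 5 signalling genes encode brakes on growth signalling and stress effectors, and all 5 were higher with shOSGEP#2 than with shOSGEP#1, as were 6.23% of all genes tested. Summed, they stood at 1067, 1167 and 787 CPM in shCtr, at 432, 400 and 293 CPM in shOSGEP#1, and at 1547 and 1790 CPM in shOSGEP#2 replicates 1 and 3 (1007 CPM in replicate 2). Between shOSGEP#1 and shCtr 4 of the 5 fell, as did 4.67% of all genes tested. Between shOSGEP#2 and shCtr edgeR called 0 of them, with Trib3 at 1.41 ± 0.34 (log2, adjusted p = 0.0134) and Chac1 at 0.77 ± 0.19 (adjusted p = 0.0157), and DESeq2 called both. Sesn2 (ENSMUSG00000028893), a leucine sensor that restrains mTORC1, was at 160, 167 and 168 CPM in shCtr, at 70.3, 57.8 and 55.1 CPM in shOSGEP#1, and at 206 and 215 CPM in shOSGEP#2 replicates 1 and 3, with no count in replicate 2. The shCtr libraries, the shOSGEP#1 libraries and the 2 shOSGEP#2 libraries of the fit did not overlap. Sesn2 fell by 1.45 ± 0.14 with shOSGEP#1 (edgeR adjusted p = 0.000171) and was higher by 1.71 ± 0.15 with shOSGEP#2 than with shOSGEP#1 (adjusted p = 0.000100).

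Eif4ebp1 (ENSMUSG00000031490) encodes 4E-BP1, which holds back cap-dependent translation when mTORC1 is low. It stood at 360, 307 and 224 CPM in shCtr, at 77.3, 63.1 and 48.0 CPM in shOSGEP#1, and at 320 and 289 CPM in shOSGEP#2 replicates 1 and 3, with no count in replicate 2. The shOSGEP#2 values lie within the range of shCtr. It fell by 2.25 ± 0.22 with shOSGEP#1 (log2, edgeR adjusted p = 0.000182) and was higher by 2.2 ± 0.23 with shOSGEP#2 than with shOSGEP#1 (adjusted p = 0.000188).

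Ddit4 (ENSMUSG00000020108), or REDD1, another inhibitor of mTORC1, was at 158, 194 and 156 CPM in shCtr, at 89.7, 86.1 and 59.8 CPM in shOSGEP#1, and at 199 and 271 CPM in shOSGEP#2 replicates 1 and 3, with 540 CPM in replicate 2. All shOSGEP#1 libraries lay below all shCtr libraries. It fell by 1.12 ± 0.19 with shOSGEP#1 (log2, edgeR adjusted p = 0.00226), a call that ended without shCtr replicate 2, at −1.01 with an adjusted p of 0.0152. It was higher by 1.5 ± 0.20 with shOSGEP#2 than with shOSGEP#1 (adjusted p = 0.000604).

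Trib3 (ENSMUSG00000032715), a pseudokinase that binds AKT and feeds back on ATF4, was at 241, 322 and 124 CPM in shCtr and at 130, 124 and 75.2 CPM in shOSGEP#1. In shOSGEP#2 it was at 580 and 720 CPM in replicates 1 and 3, and at 467 CPM in replicate 2. Replicate 3 of shCtr lay within the range of shOSGEP#1, and the log2 fold change of −1.08 ± 0.31 between these groups did not pass (edgeR adjusted p = 0.0295). With shOSGEP#2 it was higher than with shOSGEP#1 by 2.48 ± 0.34 (adjusted p = 0.000640). Chac1 (ENSMUSG00000027313), the enzyme that degrades glutathione, was at 148, 176 and 115 CPM in shCtr, at 65.1, 68.9 and 55.0 CPM in shOSGEP#1, and at 241 and 295 CPM in shOSGEP#2 replicates 1 and 3, with no count in replicate 2. The groups do not overlap in the 8 libraries. It fell by 1.23 ± 0.18 with shOSGEP#1 (adjusted p = 0.00111) and was higher by 2.00 ± 0.19 with shOSGEP#2 than with shOSGEP#1 (adjusted p = 0.000118).

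**Figure D3:**
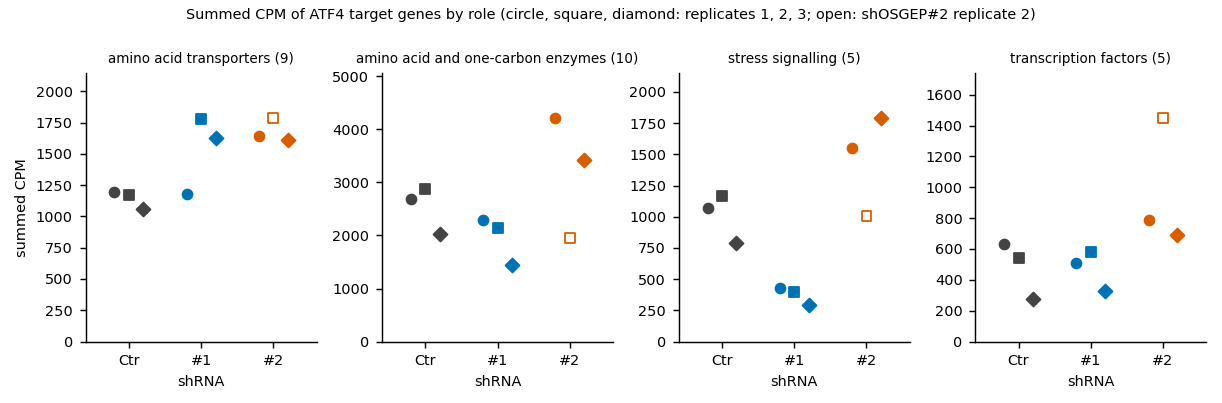
Summed CPM (vertical axis, linear, from 0) of the transporters, synthesis genes, signalling genes and transcription regulators in each library, by shRNA (horizontal axis), with open squares for shOSGEP#2 replicate 2. The signalling genes sum to 293 to 432 in shOSGEP#1, below the 787 to 1167 of shCtr.

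Of the 5 transcription regulators 1 was called between shOSGEP#1 and shCtr, 0 by edgeR between shOSGEP#2 and shCtr, where DESeq2 called 0 too and 0 had an unadjusted p under 0.05, and 1 between the shRNAs. Of all genes tested 9.67%, 9.55% and 10.8% were called. Summed, they stood at 635, 539 and 276 CPM in shCtr, 507, 583 and 325 CPM in shOSGEP#1, and 787 and 688 CPM in shOSGEP#2 replicates 1 and 3 (1448 CPM in replicate 2). Nupr1 (ENSMUSG00000030717), a small chromatin-associated stress protein, was at 94.8, 64.1 and 41.5 CPM in shCtr, at 19.5, 10.3 and 21.9 CPM in shOSGEP#1, and at 83.7 and 81.2 CPM in shOSGEP#2 replicates 1 and 3, with 149 CPM in replicate 2. All shOSGEP#1 libraries lay below all others. It fell by 1.97 ± 0.32 with shOSGEP#1 (log2, edgeR adjusted p = 0.00211) and was higher by 2.18 ± 0.35 with shOSGEP#2 than with shOSGEP#1 (adjusted p = 0.00132). Atf3, a stress-induced repressor, ran from 18.6 to 35.5 CPM in shCtr, from 16.7 to 23.8 CPM in shOSGEP#1, and stood at 47.8 and 38.4 CPM in shOSGEP#2 replicates 1 and 3. Cebpb and Cebpg, which pair with ATF4, ran from 14.4 to 43.0 CPM and from 57.7 to 122 CPM over the 8 libraries. Atf5, a related factor of the mitochondrial stress response, ran from 143 to 546 CPM. None of these 4 was called in any of the 3 comparisons by edgeR on the 8 libraries, while DESeq2 on them called Atf3 between the shRNAs (adjusted p = 0.00334). In shOSGEP#2 replicate 2 Cebpb read 559 CPM, Atf5 read 638 CPM, Cebpg read 102 CPM and Atf3 had no count.

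Of the 4 genes for secreted proteins and receptors only Gdf15 had enough counts. Gdf15 (ENSMUSG00000038508), a stress cytokine that acts on appetite, was at 42.2, 45.9 and 34.6 CPM in shCtr, at 56.1, 80.7 and 60.5 CPM in shOSGEP#1, and at 112.2 and 163 CPM in shOSGEP#2 replicates 1 and 3, with 236 CPM in replicate 2. Unlike the signalling genes it was above shCtr in every library of both shRNAs. It rose by 1.65 ± 0.21 with shOSGEP#2 against shCtr (log2, edgeR adjusted p = 0.000500), while its fold change with shOSGEP#1 was 0.68 ± 0.19 (adjusted p = 0.0295). DESeq2 on the same 8 libraries called Gdf15 for shOSGEP#1 too (adjusted p = 0.00554). With shOSGEP#2 it was higher than with shOSGEP#1 by 0.97 ± 0.21 (edgeR adjusted p = 0.00775). That call ended without shCtr replicate 1 or 2, shOSGEP#1 replicate 1 or 3, or shOSGEP#2 replicate 3, with fold changes of 0.72 to 0.99 and adjusted p from 0.0132 to 0.0772. Fgf21, a fasting hormone, had 8 counts in shOSGEP#2 replicate 1 and 0 in every other library. Stc2, a secreted glycoprotein, had 0 counts in all 9, and Vldlr, a lipoprotein receptor, had 1 count in shCtr replicate 1 alone. These 3 were not tested.

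Atf4 (ENSMUSG00000042406) is not among the 33 but is the factor they are named for. It stood at 863, 897 and 597 CPM in shCtr, at 661, 688 and 408 CPM in shOSGEP#1, and at 1449 and 1013 CPM in shOSGEP#2 replicates 1 and 3, with 931 CPM in replicate 2. The shOSGEP#2 libraries were the highest, and shCtr replicate 3 lay within the range of shOSGEP#1. Its log2 fold changes were −0.44 ± 0.24 with shOSGEP#1 (edgeR adjusted p = 0.219), 0.56 ± 0.26 with shOSGEP#2 (adjusted p = 0.151) and 1.00 ± 0.26 between shOSGEP#2 and shOSGEP#1 (adjusted p = 0.0194), none past the threshold by edgeR. DESeq2 on the same 8 libraries called the last (adjusted p = 0.000854). Leaving out 1 library gave edgeR fold changes of −0.60 to −0.23 for shOSGEP#1 and 0.24 to 0.82 for shOSGEP#2 against shCtr. With all 9 libraries these were −0.45 and 0.30. ATF4 is controlled largely through translation, which RNA counts do not measure.

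Of 18 listed core genes of the integrated stress response, all tested, 1 was called in each comparison. Of all genes tested 9.67%, 9.55% and 10.8% were called, and the difference from these shares was not tested. Eif2ak3, the kinase PERK, was at 30.4, 27.6 and 29.8 CPM in shCtr, at 54.9, 64.4 and 85.5 CPM in shOSGEP#1, and at 62.5 and 79.9 CPM in shOSGEP#2 replicates 1 and 3, with 367 CPM in replicate 2. It rose by 1.21 ± 0.18 with shOSGEP#1 (log2, edgeR adjusted p = 0.00154) and by 1.18 ± 0.20 with shOSGEP#2 (adjusted p = 0.00233). The first call ended without shCtr replicate 2 (1.17, adjusted p = 0.0128), and the second without shCtr replicate 1 or 2 or shOSGEP#2 replicate 3 (1.03 to 1.22, adjusted p from 0.0109 to 0.0200). Eif2s1, which encodes eIF2α, ran from 214 to 291 CPM in shCtr and shOSGEP#1 and stood at 151 and 138 CPM in shOSGEP#2 replicates 1 and 3 and at 137 CPM in replicate 2. It was lower in shOSGEP#2 than in shOSGEP#1 by a log2 fold change of −0.90 ± 0.17 (adjusted p = 0.00307), a call that ended without shOSGEP#2 replicate 3 (−0.81, adjusted p = 0.0319). Eif2ak1, the haem-regulated kinase HRI, ran from 58.7 to 82.0 CPM over the 8 libraries, and Ddit3, which encodes CHOP, from 35.0 to 85.9 CPM, neither with a call by edgeR. Eif2ak1 had no count and Ddit3 read 21.1 CPM in shOSGEP#2 replicate 2. Ddit3 has a second identifier in the table, at 0 in every library.

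Of 21 further genes of the amino acid and stress response outside the 33, 20 were tested, and 1, 3 and 2 of them were called in the comparisons of shOSGEP#1 with shCtr, shOSGEP#2 with shCtr and shOSGEP#2 with shOSGEP#1, all higher. Of all genes tested 5.00%, 5.66% and 6.23% were called higher in these comparisons. Herpud1, a protein of endoplasmic reticulum degradation, ran from 32.7 to 40.9 CPM in shCtr, from 69.6 to 86.3 CPM in shOSGEP#1, and stood at 141 and 126 CPM in shOSGEP#2 replicates 1 and 3, with no count in replicate 2. It rose by 0.98 ± 0.16 with shOSGEP#1 (log2, edgeR adjusted p = 0.00192) and by 1.72 ± 0.17 with shOSGEP#2 (adjusted p = 0.000163). The first of these calls ended without shCtr replicate 2 or shOSGEP#1 replicate 2 (0.88 to 1.03, adjusted p from 0.0114 to 0.0117). Vegfa, the angiogenic factor, rose by 1.51 ± 0.22 with shOSGEP#2 against shCtr (adjusted p = 0.00106) and by 1.46 ± 0.22 against shOSGEP#1 (adjusted p = 0.00103), both shOSGEP#2 libraries of the fit being above the other 6, as was replicate 2 at 453 CPM. Ero1a, the oxidase of disulfide formation, rose by 1.72 ± 0.23 against shCtr (adjusted p = 0.000617) and by 1.07 ± 0.23 against shOSGEP#1 (adjusted p = 0.00761), in the same 2 libraries. It read 125 CPM in shOSGEP#2 replicate 2, within the shCtr range of 118 to 163 CPM and below each shOSGEP#1 library. The latter call ended without shCtr replicate 1 or 2, shOSGEP#1 replicate 1 or 2, or shOSGEP#2 replicate 1 or 3 (0.89 to 1.23, adjusted p from 0.0110 to 0.0627).

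Of 16 amino acid transporters outside the 33, 15 were tested, and 2, 1 and 1 were called in these comparisons, against 9.67%, 9.55% and 10.8% of all genes tested. Slc36a4, a proline and tryptophan transporter, rose by 0.89 ± 0.19 with shOSGEP#1 (log2, edgeR adjusted p = 0.00689), with 29.2 to 42.8 CPM against 18.1 to 21.1 CPM in shCtr. This call ended without shCtr replicate 1, 2 or 3 or shOSGEP#1 replicate 2 or 3 (0.77 to 0.95, adjusted p from 0.0167 to 0.0438). With shOSGEP#2 it rose by 1.41 ± 0.20 (adjusted p = 0.000930), at 48.7 and 63.6 CPM in replicates 1 and 3, with no count in replicate 2. Slc6a6, the taurine transporter, ran from 299 to 416 CPM in shCtr and from 596 to 983 CPM in shOSGEP#1, and stood at 378 and 436 CPM in shOSGEP#2 replicates 1 and 3, with 87.9 CPM in replicate 2. It rose by 1.15 ± 0.20 with shOSGEP#1 (adjusted p = 0.00301) and was lower in shOSGEP#2 than in shOSGEP#1 by −1.01 ± 0.23 (adjusted p = 0.00993). The former call ended without shCtr replicate 1 or 2 or shOSGEP#1 replicate 2 (0.94 to 1.10, adjusted p from 0.0145 to 0.0223). The latter ended without shCtr replicate 1 or 2, shOSGEP#1 replicate 2 or 3, or shOSGEP#2 replicate 1 or 3 (−1.09 to −0.81, adjusted p from 0.0167 to 0.0474).

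Across the 33 members, 7 were lower with shOSGEP#1 than with shCtr and higher with shOSGEP#2 than with shOSGEP#1, and 4 were higher with shOSGEP#2 than with either other group. The first set holds Psph, Aldh1l2, Sesn2, Ddit4, Eif4ebp1, Chac1 and Nupr1, and the second Slc1a4, Cth, Pck2 and Gdf15. Trib3 and Psat1 were called between the shRNAs alone and Slc7a1 between shOSGEP#1 and shCtr alone, so the 14 called members fall into these patterns. The comparisons share their libraries, and these counts are a description. Of the 8, 4 and 13 calls in the 3 comparisons, 5, 2 and 9 were made again in each of the 8 fits that left out 1 library.

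Because the members are grouped by a shared regulator, their promoters were searched for the letters of a C/EBP-ATF element, TGATGNAA, on both strands. RefSeq promoters of build GRCm38.p6, from 250 bases before to 50 after the start, were held for 27 of the 33 members. Of these 27, 10 had a match (Atf3, Chac1, Trib3, Slc7a11, Asns, Fgf21, Nupr1, Slc1a4, Pck2 and Vldlr), and of 27025 genes with such promoters 1219 had it, or 4.51%. Cth, Eif4ebp1, Slc1a5, Aldh1l2, Slc7a3 and Slc7a5 were not in the table. Windows around the match, written 5′ to 3′ along the gene's strand with the match in capitals, are shown for 7 of the 10, namely the 5 with a match that were called in at least 1 comparison, Slc7a11, which held 2 matches, and Asns, whose match lies on the gene's own strand. A match is a description of letters and no measure of binding.
Slc7a11, chr3:50443627-50443705, minus strand: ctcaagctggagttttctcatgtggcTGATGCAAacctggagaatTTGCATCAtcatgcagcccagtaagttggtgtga
Chac1, chr2:119351023-119351082, plus strand: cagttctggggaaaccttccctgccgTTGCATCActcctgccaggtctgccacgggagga
Trib3, chr2:152344031-152344072, minus strand: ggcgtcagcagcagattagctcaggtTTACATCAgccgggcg
Nupr1, chr7:126625547-126625606, minus strand: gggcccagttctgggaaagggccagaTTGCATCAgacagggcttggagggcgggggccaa
Slc1a4, chr11:20332684-20332743, minus strand: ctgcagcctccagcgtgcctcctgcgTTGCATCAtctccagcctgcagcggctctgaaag
Pck2, chr14:55540137-55540196, plus strand: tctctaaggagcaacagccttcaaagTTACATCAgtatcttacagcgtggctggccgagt
Asns, chr6:7693199-7693258, minus strand: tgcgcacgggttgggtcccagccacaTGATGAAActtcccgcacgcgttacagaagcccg

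In the mouse annotation used for gene names, exons of 8 members overlap exons of a gene on the opposite strand, among them Psph with Cct6a and Aldh1l2 with D10Wsu102e. Over the 8 libraries Cct6a reached 745 CPM, where Psph ran from 16.1 to 154 CPM. D10Wsu102e reached 94.2 CPM, where Aldh1l2 ran from 48.8 to 604 CPM. How reads in such overlaps were assigned was not analysed here. 1 member, Phgdh, has a processed pseudogene named after it.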

How the data were processed

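Deposited values were counts, whole numbers that the authors left unnormalized, for 9 libraries of RIG-I-associated RNA, made with bcl2fastq, Trim Galore, STAR and Salmon, with replicates from independent experiments. How Salmon estimates became whole numbers was not stated. Of 22396 genes 22237 were matched to a symbol. The test across genes was run in edgeR 4.0.16 under R 4.3.3 with TMM normalization, the filterByExpr filter and the quasi-likelihood test on 8 libraries, without shOSGEP#2 replicate 2, with a coefficient per group, no covariate and 3 contrasts. Calls needed an adjusted p under 0.01 (Benjamini-Hochberg over the 12744 genes tested). SE was taken as fold change (log2) over the root of the F statistic. The pipeline was tested on simulated data.

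Alternatives were DESeq2 1.42.0 with and without that library, limma 3.58.1 voom with quality weights on 9 libraries, edgeR on 9 libraries, RLE factors, library totals, no filter, a minimum of 10 counts in each library, a threshold of 0.05, fits of the groups compared, a replicate block, and leaving out each library.

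Members and lists were chosen with earlier results of these data known. The genes named are the 33 members, Osgep and Ddx58, the markers, Atf4, Ddit3, Eif2ak1 and Eif2s1, and genes of 3 further pathway lists past the threshold in at least 1 comparison. Lars2, Cct6a and D10Wsu102e were chosen after their values were seen. Depths ran from 568995 to 50224299 counts, and with 2 or 3 libraries per group precision is limited by the number of replicates. Python 3.11.15, numpy 2.4.6, pandas 2.3.3 and matplotlib 3.10.9 made the tables and plots. No set test was run, and input RNA was not used here.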

Additional observations from a re-analysis of the deposited data

Results flagged for a closer look

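The effects of the 2 shRNAs against shCtr differed for 13 ATF4 target genes and for 4 genes of the other pathway lists, the cell type markers not counted, by the direct edgeR test of shOSGEP#2 against shOSGEP#1 on 8 libraries. Of all genes tested 10.8% were called there, so the 4, out of 18, 20 and 15 tested in those lists, do not exceed that share. Among transport and secreted members the log2 difference was 1.34 for Slc1a4 and 0.97 for Gdf15. Among synthesis genes it was 1.25 for Psat1, 2.57 for Psph, 3.0 for Aldh1l2, 2.65 for Cth and 1.59 for Pck2. Each of these was higher in both shOSGEP#2 libraries of the fit than in the 3 shOSGEP#1 libraries. Among signalling genes and regulators it was 2.48 for Trib3, 1.71 for Sesn2, 1.5 for Ddit4, 2.2 for Eif4ebp1, 2.00 for Chac1 and 2.18 for Nupr1. The other 4 genes were Eif2s1 (−0.90), Vegfa (1.46), Ero1a (1.07) and Slc6a6 (−1.01). In shOSGEP#2 replicate 2, outside the fit, not all of the 13 members went the same way. Aldh1l2, Cth, Sesn2, Eif4ebp1 and Chac1 had no count there (up to 5.27 CPM), below every shOSGEP#1 library. Psat1 at 193 CPM lay within the shOSGEP#1 range of 115 to 234 CPM. Slc1a4, Psph, Pck2, Trib3, Ddit4, Nupr1 and Gdf15 stood above every shOSGEP#1 library. With all 9 libraries in the fit edgeR called 0 of the 33 members in this comparison, with 10 at an unadjusted p under 0.05, and DESeq2 called 6.

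In shOSGEP#2 replicate 2, the library kept out of the tests, 12 members stood above every shCtr library. Among transporters these were Slc1a5 at 1149 CPM, Slc1a4 at 123 CPM and Slc6a9 at 125 CPM. The synthesis and signalling genes were Psph at 346 CPM, Pck2 at 947 CPM, Trib3 at 467 CPM and Ddit4 at 540 CPM. The regulators were Cebpb at 559 CPM, Cebpg at 102 CPM, Atf5 at 638 CPM and Nupr1 at 149 CPM, and the secreted Gdf15 was at 236 CPM. In the same library 7 members with counts stood below every shCtr library, namely Asns at 79.1 CPM, Phgdh at 75.6 CPM, Psat1 at 193 CPM, Shmt2 at 96.7 CPM, Mthfd2 at 214 CPM, Slc3a2 at 121 CPM and Slc38a2 at 267 CPM, and 14 of the 33 had no count. Of those 14, the tested ones except Slc7a3 had 18.6 CPM or more in every shCtr library. A count of 0 allows up to 5.27 CPM, so they too lay below shCtr. Of all genes tested 19.8% stood above every shCtr library there, 10.9% stood below with counts and 67.2% had no count.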

How the results depend on the processing

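Counts are given for shOSGEP#1 against shCtr, shOSGEP#2 against shCtr and shOSGEP#2 against shOSGEP#1 in this order. At an adjusted p under 0.05 the genes called were 2797, 2674 and 2952 and the members called in the first 2 comparisons 14 and 9. With all 9 libraries edgeR called 0 genes and 0 members in each, where 620, 1240 and 1325 genes had p under 0.05 unadjusted, and DESeq2 on all 9 called 122, 349 and 413 genes and 2, 3 and 6 members. The common dispersion was 0.0692 with 8 libraries and 0.420 with 9. DESeq2 on 8 libraries called 2420, 2395 and 2595 genes, and 13 and 8 members in the first 2 comparisons. Voom with quality weights on all 9 called 3317 genes and 14 members in the first comparison. Without a filter the members called were 13 and 9 in the first 2, and library totals gave 6 in the second. A fit of the groups compared called 737 genes in the third. With the replicate number as a block, 11, 8 and 15 members were called; libraries of the same number correlated at a mean r of 0.0809 over 7 pairs after group means were removed, those of different number at −0.0398 over 14 pairs. Over 0.1 were 3 of the 7 and 1 of the 14, and not every library correlated best with its own number; the rule asked for every same-number pair over 0.1, so the numbers were not read as pairs. Leaving out 1 library at a time gave 318 to 1458, 518 to 1471 and 743 to 1504 genes, and 5 to 9, 2 to 5 and 9 to 15 members; a lone shOSGEP#2 library was there assumed to vary like the other groups. Of 38 called fold changes of named list genes, all kept their sign in the settings run, and 38 lost the call with all 9 libraries in edgeR, 24 in DESeq2 on all 9, 5 in fits of the groups compared, 2 in voom, and 1 each with RLE factors, library totals and the block. Of 16 uncalled fold changes given, 11 passed in DESeq2 on 8 libraries, 13 without a filter, 9 with the replicate block, 7 in voom, 2 each with library totals, a minimum of 10 counts (of 14 tested) and fits of the groups compared, and 1 of 15 in DESeq2 on all 9. Except for the looser threshold, the cause was not tested. In shOSGEP#2 replicate 2 a count of 0 allows up to 5.27 CPM.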
